A study of Mus musculus with 16 samples.

Results

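Gq alpha subunits and the phospholipase C beta (PLCβ) enzymes they switch on were followed in RNA from the mouse striatum. The set held 7 genes, Gnaq, Gna11 and Gna14 for the alpha subunits and Plcb1, Plcb2, Plcb3 and Plcb4 for the enzymes. They were taken by symbol from a read-count table of 24058 gene symbols, and each stood on 1 line of it. All mice were 9-week-old male C57BL/6J wild types that carried 1 of 2 peptides in their astrocytes. bARK is derived from GRK2, the β-adrenergic receptor kinase, and damps signalling through Gq. bARK(D110A) carries the D110A change in the region by which GRK2 binds Gq. From each lysate came RNA of tagged astrocyte ribosomes, pulled down by their hemagglutinin tag (IP), and RNA of the whole cleared lysate (input). The 4 groups were bARK IP, bARK input, bARK(D110A) IP and bARK(D110A) input, with 4 libraries each. Every group carried a construct, so nothing here was set against astrocytes without one. The sources used here do not name the promoter that drove the peptides or the protein that bore the tag. The libraries of a construct are numbered 1 to 4, and input and IP with the same number were read as 1 mouse. Since the labels do not state that each number is a separate animal, p-values speak for the spread among these libraries, which may be technical.

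Gq proteins carry signals from receptors for glutamate, noradrenaline, acetylcholine, endothelin and other transmitters into the cell. A receptor makes the alpha subunit exchange GDP for GTP, and the GTP-bound subunit binds a PLCβ enzyme. The enzyme splits the membrane lipid PIP2 into IP3, which opens calcium channels of the endoplasmic reticulum, and diacylglycerol, which activates protein kinase C. PLCβ enzymes in turn speed up GTP hydrolysis by the alpha subunit, so they also end the signal they carry. In astrocytes this route is a main source of calcium rises after transmitter release. Gnaq and Gna11 encode closely related, widely expressed alpha subunits, while Gna14 is found in fewer tissues. Gna15, the remaining gene of the class, is known from blood-forming cells. Among the enzymes, Plcb1 is abundant in forebrain neurons, Plcb2 is best known from blood cells and taste cells, Plcb3 is widespread, and Plcb4 is prominent in cerebellum, retina and thalamus.

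In the RefSeq annotation of GRCm38.p6, the assembly also called mm10, the class lies partly in neighbouring pairs. Gnaq (chr19:16132684-16388520) and Gna14 (chr19:16435667-16610818) are 47.1 kb apart on the plus strand. Gna11 (chr10:81528724-81545162) lies 4.3 kb from Gna15 (chr10:81502313-81524447), both on the minus strand. Plcb1 (chr2:134786164-135475258) and Plcb4 (chr2:135658603-136014602) follow each other on the plus strand with 183.3 kb between them. In the GENCODE annotation of the same assembly, none of these 3 pairs has another protein-coding gene between its members. Plcb2 (chr2:118705003-118728661) and Plcb3 (chr19:6953708-6975006) stand alone on the minus strand. By GENCODE exons, an antisense RNA, 9630028H03Rik, overlaps 1.60% of the exon bases of Plcb1. Ppp1r14b overlaps 0.316% of those of Plcb3 from the other strand. The sources used here do not say whether reads were counted by strand, and reads in those bases may belong to either gene.

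The 250 bases before the start site are shown for 4 members, from the RefSeq promoter table of GRCm38.p6 and 5′ to 3′ on the strand of the gene. Gnaq and Gna14 are shown as neighbours that differed widely in level, and Plcb3 and Plcb2 as the members with the highest and the lowest ratio of IP to input. Capitals mark the GC box GGGCGG (bound by Sp family factors) and the PU box GAGGAA (bound by PU.1 and other Ets factors), read on both strands with overlapping matches counted. TATAAA was searched too and was in none of these windows.
Gnaq, chr19:16132434-16132683, plus strand: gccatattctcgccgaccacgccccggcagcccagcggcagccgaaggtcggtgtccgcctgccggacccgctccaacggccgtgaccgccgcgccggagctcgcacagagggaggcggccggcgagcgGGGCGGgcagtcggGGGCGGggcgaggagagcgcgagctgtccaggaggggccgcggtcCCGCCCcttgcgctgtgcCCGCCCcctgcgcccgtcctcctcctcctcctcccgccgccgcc
Gna14, chr19:16435417-16435666, plus strand: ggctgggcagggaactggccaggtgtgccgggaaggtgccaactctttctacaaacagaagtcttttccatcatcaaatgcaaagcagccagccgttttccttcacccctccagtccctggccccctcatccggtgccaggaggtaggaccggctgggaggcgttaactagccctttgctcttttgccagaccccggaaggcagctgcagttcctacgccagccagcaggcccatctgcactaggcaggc
Plcb3, chr19:6969815-6970064, minus strand: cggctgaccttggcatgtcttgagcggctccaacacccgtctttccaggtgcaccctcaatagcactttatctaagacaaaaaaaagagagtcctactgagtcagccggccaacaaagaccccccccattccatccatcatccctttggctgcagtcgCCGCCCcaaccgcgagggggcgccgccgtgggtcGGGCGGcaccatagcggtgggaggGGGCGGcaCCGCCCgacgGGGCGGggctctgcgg
Plcb2, chr2:118728439-118728688, minus strand: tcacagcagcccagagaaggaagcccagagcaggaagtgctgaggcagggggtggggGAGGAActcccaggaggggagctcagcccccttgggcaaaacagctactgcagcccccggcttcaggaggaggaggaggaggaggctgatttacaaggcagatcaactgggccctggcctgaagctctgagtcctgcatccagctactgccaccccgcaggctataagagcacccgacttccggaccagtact
The window of Gnaq held 4 GC boxes and 37 CpG pairs, and that of Plcb3 held 5 GC boxes and 20 CpG pairs. The window of Gna14 held no GC box and 7 CpG pairs. That of Plcb2 held no GC box, 1 PU box and 4 CpG pairs. The windows of Plcb3 and Plcb2 lie wholly and mostly inside the annotated spans of their genes, which begin upstream of the starts used. Over 32851 mouse promoter windows of the same length, 32.7% held a GC box, 23.3% a PU box and 12.4% TATAAA, and the median was 6 CpG pairs. Among the members not shown, Gna11 held 2 GC boxes, Plcb1 held 1, and the first of 2 Plcb4 starts held 7. The second Plcb4 start held no GC box, 2 PU boxes and 3 CpG pairs. Gna15, outside the set, also held 2 PU boxes. These matches describe letters in a window, not binding.

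Total counts ran from 41.5 to 47.2 M reads in bARK IP, 27.8 to 38.0 M in bARK input, 44.6 to 51.4 M in bARK(D110A) IP and 29.1 to 37.3 M in bARK(D110A) input. Levels are given as CPM, the count of a gene scaled to a common total after correction of library sizes by the trimmed mean of M values (TMM). All 10 astrocyte markers, such as Aldh1l1 and Aqp4, were higher in IP with both constructs. They summed to 33830 to 40646 CPM in bARK IP, against 5835 to 6199 CPM in bARK input, and to 28682 to 35303 CPM in bARK(D110A) IP, against 5320 to 6224 CPM in bARK(D110A) input. All 10 microglial markers were lower, with 55.0 to 69.7 CPM in bARK IP, against 811 to 983 CPM in bARK input, and 52.3 to 66.3 CPM in bARK(D110A) IP, against 775 to 1281 CPM in bARK(D110A) input. All 8 endothelial markers were lower too, at 18.4 to 23.0 CPM in bARK IP, against 134 to 163 CPM in bARK input, and 20.2 to 21.8 CPM in bARK(D110A) IP, against 139 to 162 CPM in bARK(D110A) input. Medium spiny neurons are the most numerous striatal neurons, and their 10 markers were all lower but far from gone. They summed to 4662 to 5390 CPM in bARK IP, against 10913 to 13004 CPM in bARK input, and to 4624 to 6190 CPM in bARK(D110A) IP, against 9624 to 11720 CPM in bARK(D110A) input. Pan-neuronal markers gave 2 higher and 4 lower of 8 with bARK, and 3 higher and 2 lower with bARK(D110A). They summed to 4367 to 4835 CPM in bARK IP, against 5049 to 5172 CPM in bARK input. With bARK(D110A) the sums were 4335 to 5477 CPM in IP, against 4552 to 5221 CPM in input. Oligodendrocyte markers gave 1 higher and 1 lower of 8 with bARK and 0 higher and 1 lower with bARK(D110A). Their sums were 5166 to 7927 CPM in bARK IP, against 5858 to 6490 CPM in bARK input. For bARK(D110A) they were 3959 to 10583 CPM in IP, against 5558 to 9400 CPM in input. Levels in IP are thus not read here as those of astrocytes alone. Mural cell markers gave 3 higher and 4 lower of 8 with bARK, and 2 higher and 4 lower with bARK(D110A). No marker of any list was at 0 in all IP libraries.

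In 4 cases a library stood apart from its group on a member. One was bARK(D110A) input 2, where Plcb4 was at 50.4 CPM, against 24.7 to 28.2 CPM in the 3 other libraries of its group. A list of 6 genes of cortical and thalamic excitatory neurons, chosen after these values were seen, summed to 210 CPM in that library and to 28.9 to 38.5 CPM in the 3 others. Slc17a7, the vesicular glutamate transporter of cortical neurons, was at 120 CPM in it, and Slc17a6, its thalamic counterpart, at 17.3 CPM. Prkcd of the list was at 43.9 CPM there, against 9.97 to 16.4 CPM in the 3 others. Tcf7l2 of the list was at 5.17 CPM, against 2.51 to 3.12 CPM. The sum was 262 CPM in the IP library of the same number, and with bARK it reached 205 CPM in IP 4 and 122 CPM in input 4. In bARK input 4, Slc17a7 was at 86.4 CPM and Slc17a6 at 0.988 CPM, the lowest Slc17a6 value of the bARK inputs. Plcb4 itself was at 97.7 CPM in bARK(D110A) IP 2, where its group ran from 85.7 to 103 CPM. In bARK IP 4 it was at 100.0 CPM, in a group of 87.8 to 109 CPM. The part of cortical and thalamic neurons in the Plcb4 value was not tested.

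Compared per kilobase of exon (RPKM), Plcb1 was the most abundant member in every group. It averaged 66.3 ± 2.85 RPKM in bARK IP and 84.0 ± 5.06 RPKM in bARK input (SD, n = 4). With bARK(D110A) it averaged 70.8 ± 7.83 RPKM in IP and 78.4 ± 3.72 RPKM in input. The part of neurons in its IP level was not tested. In the IP libraries Gnaq came next, then Gna11, and the library ranges of these 3 genes did not overlap. Plcb4 and Plcb3 followed at closely similar levels whose ranges overlapped, with 11.1 ± 0.97 and 10.8 ± 1.16 RPKM in bARK IP and 10.6 ± 0.82 and 9.77 ± 0.91 RPKM in bARK(D110A) IP. Gna14 and Plcb2 were far below. Gna14 averaged 0.388 RPKM in bARK IP and 0.445 RPKM in bARK(D110A) IP, and Plcb2 0.286 RPKM in bARK IP and 0.257 RPKM in bARK(D110A) IP. Their ranges overlapped in bARK IP and not in bARK(D110A) IP.

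The input libraries gave another order. Gna11 stood above Gnaq there, and Plcb2 above Gna14. Gna11 averaged 28.9 RPKM in bARK input and 28.8 RPKM in bARK(D110A) input, and Gnaq 26.3 RPKM in bARK input and 25.2 RPKM in bARK(D110A) input. Plcb4 and Plcb3 were at 3.21 and 2.52 RPKM in bARK input without overlap, and at 3.60 and 2.67 RPKM in bARK(D110A) input with overlap. With the length of the longest coding transcript in place of the union of exons, the single change of order was that Gna11 passed Gnaq in bARK(D110A) IP.

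Within each family the make-up of the RNA differed between IP and input, while the ranges of the PLCβ sums overlapped. The 4 PLCβ genes summed to 88.5 ± 3.62 RPKM in bARK IP and 90.7 ± 5.03 RPKM in bARK input, and to 91.4 ± 8.69 RPKM in bARK(D110A) IP and 85.8 ± 2.39 RPKM in bARK(D110A) input (SD, n = 4). Of that sum, Plcb1 held 74.9 ± 1.47% in bARK IP, against 92.5 ± 0.44% in bARK input. With bARK(D110A) its share was 77.4 ± 1.59% in IP, against 91.3 ± 1.84% in input. Plcb3 held 12.2% in bARK IP, against 2.78% in bARK input, and 10.7% in bARK(D110A) IP, against 3.12% in bARK(D110A) input. Plcb4 held 12.5% in bARK IP, against 3.54% in bARK input, and 11.6% in bARK(D110A) IP, against 4.23% in bARK(D110A) input. The 3 alpha subunits summed to 57.5 ± 1.08 RPKM in bARK IP, against 55.4 ± 0.55 RPKM in bARK input, and to 57.1 ± 1.11 RPKM in bARK(D110A) IP, against 54.2 ± 1.68 RPKM in bARK(D110A) input. Of these sums, Gnaq held 53.4 ± 0.97% in bARK IP, against 47.5 ± 0.68% in bARK input, and 51.7 ± 0.80% in bARK(D110A) IP, against 46.5 ± 1.09% in bARK(D110A) input. Gna14 stayed at 0.782% or less in each group mean.

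**Figure D1:**
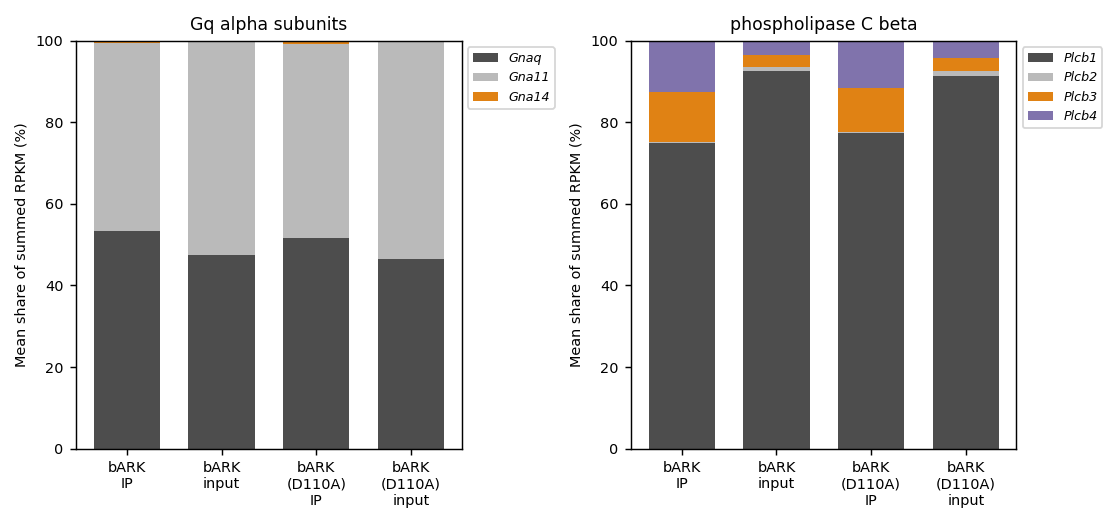
Mean share (%) of each gene in the summed RPKM of its family, as stacked bars for the 4 groups (4 libraries each), with the alpha subunits on the left and the PLCβ enzymes on the right. Plcb3 and Plcb4 together take a visible part of the PLCβ bar in IP (12.2% and 12.5% with bARK), while Plcb1 fills 92.5% of it in bARK input.

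The first comparison asked which members were enriched in RNA on astrocyte ribosomes over the whole lysate. Plcb3 and Plcb4 stood out, at about 3- to 4-fold higher levels in IP, Gna14 was 2.43-fold higher with bARK and 2.38-fold higher with bARK(D110A) but scarce, and Plcb2 was several-fold lower. Gnaq was slightly higher and Gna11 slightly lower. With bARK, 4 of the 7 members were higher in IP, where 37.6% of 15850 tested genes were, and 3 were lower, where 38.1% were (edgeR, adjusted p under 0.05). With bARK(D110A), 4 were higher, where 36.5% of all tested genes were, and 2 were lower, where 37.2% were. Called in either direction were 7 of 7 members with bARK, against 75.8% of all genes, and 6 of 7 with bARK(D110A), against 73.7%. All 7 passed the count filter. In CPM, 4 members were higher and 3 lower without overlap between bARK IP and bARK input, as were 36.1% and 35.8% of all genes. Between bARK(D110A) IP and bARK(D110A) input, 4 were higher and 1 lower without overlap, as were 31.3% and 32.5% of all genes. In such bulk RNA, fewer cells of a type and less RNA per cell cannot be told apart.

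**Figure D2:**
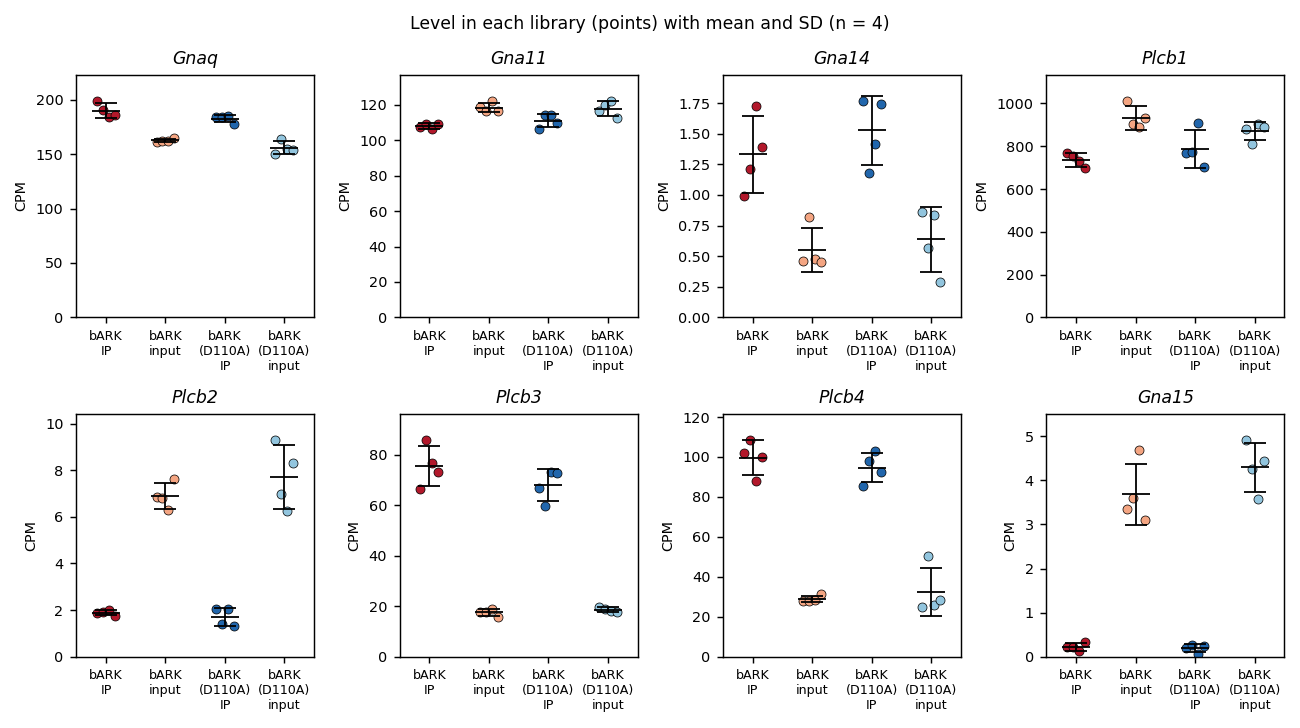
CPM (y axis, from 0) of the 7 members and Gna15 in the 16 libraries, with 1 point per library and the mean and SD of 4 libraries as bars, for bARK IP, bARK input, bARK(D110A) IP and bARK(D110A) input. Plcb3 lies at 59.5 to 85.8 CPM in every IP library and at 15.8 to 19.7 CPM in every input library, and the Plcb4 point at 50.4 CPM in bARK(D110A) input stands apart from its group.

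Among the alpha subunits, Gnaq was at 199, 191, 184 and 186 CPM in bARK IP, against 161, 162, 162 and 165 CPM in bARK input. The bARK(D110A) libraries gave 184, 184, 185 and 178 CPM in IP, against 151, 164, 155 and 154 CPM in input. Each IP library lay above each input library of its construct. IP over input gave a log2 fold change of 0.22 ± 0.04 with bARK (SE, adjusted p = 3.62e-05) and 0.23 ± 0.04 with bARK(D110A) (adjusted p = 3.20e-05), or 1.17-fold in both. Without scaling factors it was 0.08 with bARK (adjusted p = 0.0444) and 0.07 with bARK(D110A) (adjusted p = 0.0811), so that its enrichment with bARK(D110A) was no longer called. That setting shifted the median of all genes by -0.14 with bARK and -0.16 with bARK(D110A).

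Gna11, the close relative of Gnaq, went the other way by a small amount. Its levels were 108, 109, 106 and 109 CPM in bARK IP, against 119, 117, 122 and 116 CPM in bARK input, with no overlap. With bARK(D110A) they were 106, 114, 114 and 109.6 CPM in IP, against 117, 120.0, 122 and 112 CPM in input. There IP libraries 2 and 3 lay above input library 4, so the groups overlapped. The log2 fold change was -0.13 ± 0.04 with bARK (adjusted p = 0.00427) and -0.09 ± 0.04 with bARK(D110A) (adjusted p = 0.0478). The call with bARK(D110A) lay at the threshold and was lost in 13 of the 16 fits that left out 1 library. It held without bARK(D110A) IP 2, without bARK(D110A) IP 3 and without bARK(D110A) input 4, and the adjusted p ran from 0.0277 to 0.286 over the 16 fits. In reads, Gna11 had 53.9 to 58.7 per 100 of Gnaq in bARK IP, against 70.5 to 75.1 in bARK input, and 57.7 to 62.1 in bARK(D110A) IP, against 72.9 to 79.1 in bARK(D110A) input. This ratio needs no scaling between libraries, and its IP and input ranges did not overlap with either construct.

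Gna14, the scarce alpha subunit, was at 0.991, 1.21, 1.73 and 1.39 CPM in bARK IP, against 0.458, 0.823, 0.476 and 0.454 CPM in bARK input. In bARK(D110A) libraries it was at 1.77, 1.18, 1.42 and 1.75 CPM in IP, against 0.857, 0.569, 0.837 and 0.290 CPM in input. IP and input did not overlap with either construct. These levels rest on 43 to 68 reads per library in bARK IP and 15 to 24 in bARK input, and on 51 to 87 reads in bARK(D110A) IP and 9 to 33 in bARK(D110A) input. Its log2 fold change was 1.28 ± 0.30 with bARK (adjusted p = 0.000898) and 1.25 ± 0.29 with bARK(D110A) (adjusted p = 0.000907). By mouse it varied widely, with 0.53 to 1.76 on the log2 scale with bARK and 0.72 to 2.40 with bARK(D110A).

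The remaining alpha subunit of the class, Gna15, showed the opposite. It was at 0.207, 0.210, 0.127 and 0.332 CPM in bARK IP, against 3.36, 3.60, 4.68 and 3.10 CPM in bARK input. With bARK(D110A) it was at 0.204, 0.255, 0.0654 and 0.237 CPM in IP, against 4.92, 4.26, 3.58 and 4.44 CPM in input. The log2 fold change was -4.04 ± 0.28 with bARK (adjusted p = 5.51e-10) and -4.48 ± 0.28 with bARK(D110A) (adjusted p = 2.00e-10). The IP values rest on 3 to 15 reads per library. The microglial markers, with medians of -5.16 with bARK and -5.35 with bARK(D110A), were lower in the same libraries, and their part in the Gna15 value was not tested.

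Of the enzymes, Plcb3, which responds to Gq alpha and to beta-gamma subunits, had the highest ratio of IP to input. It was at 66.5, 85.8, 76.5 and 73.0 CPM in bARK IP, against 17.6, 17.6, 19.0 and 15.8 CPM in bARK input. The bARK(D110A) mice had 66.8, 59.5, 73.1 and 72.6 CPM in IP, against 19.7, 19.0, 18.0 and 17.8 CPM in input. The groups lay far apart, and the lowest IP library was above 3 times the highest input library. The log2 fold change was 2.11 ± 0.08 with bARK (adjusted p = 4.85e-13), or 4.31-fold, and 1.87 ± 0.08 with bARK(D110A) (adjusted p = 2.56e-12), or 3.65-fold. Astrocyte markers had medians of 2.61 with bARK and 2.43 with bARK(D110A) on the same scale. In every mouse Plcb3 was higher in IP, by 1.91 to 2.28 on the log2 scale with bARK and by 1.65 to 2.03 with bARK(D110A). One read of Plcb3 stood beside 8.79 to 11.6 reads of Plcb1 in bARK IP, against 46.8 to 58.9 in bARK input, and beside 9.65 to 13.0 in bARK(D110A) IP, against 42.7 to 50.3 in bARK(D110A) input.

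Plcb4 was at 102, 109, 87.8 and 100.0 CPM in bARK IP, against 28.1, 27.8, 28.1 and 31.2 CPM in bARK input. For bARK(D110A) the values were 85.7, 97.7, 103 and 92.6 CPM in IP, against 24.7, 50.4, 25.8 and 28.2 CPM in input. No IP library overlapped an input library, although bARK(D110A) input 2 came closer than the others. Its log2 fold change was 1.79 ± 0.18 with bARK (adjusted p = 4.67e-07), or 3.46-fold, and 1.55 ± 0.18 with bARK(D110A) (adjusted p = 2.17e-06), or 2.93-fold. Without bARK(D110A) input 2 the value with bARK(D110A) was 1.86. By mouse it was 1.64 to 1.97 with bARK, and with bARK(D110A) 0.96 in mouse 2 and up to 2.00 in the others.

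Plcb1, the most abundant enzyme, was at 769, 754, 729 and 696 CPM in bARK IP, against 1014, 902, 889 and 929.8 CPM in bARK input. These groups did not overlap, and the log2 fold change was -0.34 ± 0.07 (adjusted p = 0.000239). With bARK(D110A) it was at 767, 774, 908 and 701 CPM in IP, against 880.4, 811, 903 and 890.3 CPM in input. IP library 3 of bARK(D110A) was above all 4 inputs of its construct, so the groups overlapped. The log2 fold change there was -0.15 ± 0.07 and was not called (adjusted p = 0.0635). With the mouse as a replicate block it was called, at -0.15 (adjusted p = 0.0213). Leaving out bARK(D110A) IP 3 gave -0.22 (adjusted p = 0.00294), and leaving out bARK(D110A) input 2 gave -0.18 (adjusted p = 0.0295). Of the 4 bARK(D110A) IP libraries, IP 3 also had the highest sums of spiny neuron (6190 CPM) and astrocyte markers (35303 CPM). It had the lowest sum of oligodendrocyte markers (3959 CPM), and the part of these cells in the Plcb1 value was not tested. Pan-neuronal markers had median log2 fold changes of -0.12 with bARK and 0.05 with bARK(D110A), and spiny neuron markers -1.15 and -1.0. The part of neurons in the Plcb1 level in IP was not tested.

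Plcb2, the enzyme of blood cells, was at 1.87, 1.94, 2.01 and 1.75 CPM in bARK IP, against 6.84, 6.79, 6.28 and 7.64 CPM in bARK input. With bARK(D110A) it was at 2.04, 1.41, 2.03 and 1.32 CPM in IP, against 9.30, 6.96, 6.27 and 8.30 CPM in input. Every input library was above every IP library, by far more than the spread within a group. On the log2 scale the change was -1.86 ± 0.15 with bARK (adjusted p = 6.46e-09) and -2.18 ± 0.15 with bARK(D110A) (adjusted p = 1.10e-09). On the same scale the microglial markers had medians of -5.16 with bARK and -5.35 with bARK(D110A), and the spiny neuron markers -1.15 with bARK and -1.0 with bARK(D110A). The part of either cell type in the Plcb2 value was not tested.

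**Figure D3:**
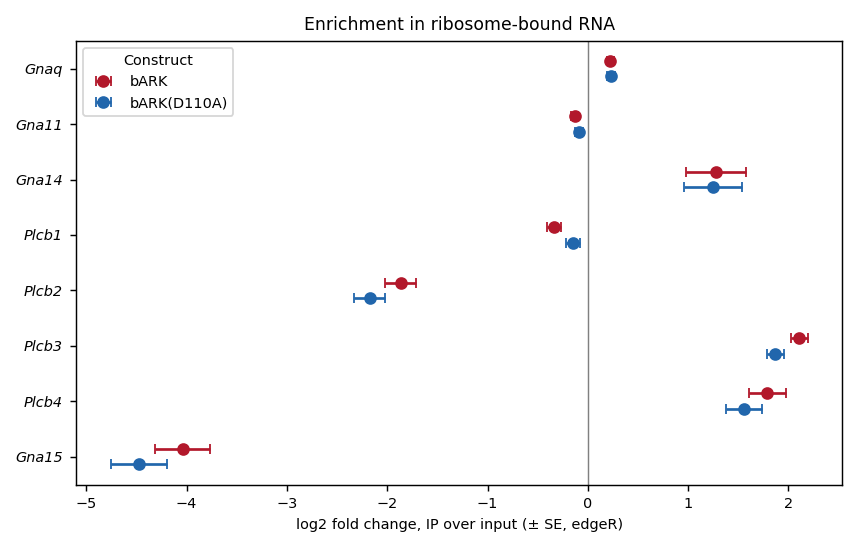
Log2 fold change of IP over input from edgeR (x axis) with its SE as bars, for the 7 members and Gna15, with bARK above bARK(D110A) in each pair. Plcb3 (2.11 and 1.87) and Plcb4 (1.79 and 1.55) lie farthest to the right, Plcb2 (-1.86 and -2.18) and Gna15 (-4.04 and -4.48) to the left, and Gnaq and Gna11 close to 0 on opposite sides.

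The next comparison asked whether the Gq-attenuating peptide went with other levels of its own pathway than the D110A version did. No member was called in IP, in input or in the difference of IP enrichment between constructs (edgeR), and 0% of all tested genes were called in each. At an unadjusted p under 0.05, 0 of the 7 members were found in any of the 3 with TMM scaling. In the difference, Plcb3 (unadjusted p = 0.0522) and Plcb1 (unadjusted p = 0.0600) lay just above that limit. Over all genes that looser limit took 1287 in IP (5.26% higher and 3.32% lower), 904 in input (2.77% higher and 3.12% lower) and 951 in the difference (4.08% higher and 1.92% lower). DESeq2 called 37 genes higher and 11 lower in IP, 2 higher and 0 lower in input and 0 in the difference, with no member among them. No member had bARK and bARK(D110A) libraries without overlap. In IP 2.95% of all genes were higher and 1.27% lower without overlap, and in input 1.93% and 1.32%.

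In IP, the log2 fold changes of bARK over bARK(D110A) ran from -0.21 ± 0.21 for Gna14 (SE, adjusted p = 0.794) to 0.15 ± 0.17 for Plcb2 (adjusted p = 0.828). Plcb3 was at 75.5 ± 8.05 CPM in bARK IP and 68.0 ± 6.32 CPM in bARK(D110A) IP (SD, n = 4), a difference of 0.14 ± 0.08 on the log2 scale (SE, adjusted p = 0.628). Gnaq was at 190.1 ± 6.72 CPM in bARK IP and 183 ± 3.34 CPM in bARK(D110A) IP, with a log2 fold change of 0.05 ± 0.04 (SE, adjusted p = 0.772). Gna11 had -0.05 ± 0.04, Plcb1 -0.10 ± 0.07 and Plcb4 0.06 ± 0.07 in the same test, with adjusted p-values of 0.739, 0.677 and 0.819. For the 4 genes Gnaq, Gna11, Plcb1 and Plcb4 the SE was 0.04 to 0.07, whereas for Gna14 it was 0.21.

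In input, the values ran from -0.24 ± 0.35 for Gna14 (adjusted p = 0.891) to 0.09 ± 0.05 for Plcb1 (adjusted p = 0.774). Gnaq had 0.05 ± 0.04 and Gna11 -0.00 ± 0.04, with adjusted p-values of 0.796 and 0.998. Plcb4 had -0.17 ± 0.24 (adjusted p = 0.883), and without bARK(D110A) input 2 its value was 0.13. The differences of IP enrichment between constructs lay between -0.20 ± 0.10 for Plcb1 (unadjusted p = 0.0600, adjusted p = 0.831) and 0.31 ± 0.21 for Plcb2 (adjusted p = 0.850). Plcb3 had 0.24 ± 0.11 (unadjusted p = 0.0522, adjusted p = 0.825). Plcb4 had 0.24 ± 0.25 (adjusted p = 0.906), which became -0.08 without bARK(D110A) input 2. These misses of the threshold do not show that the constructs act alike on these genes.

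**Figure D4:**
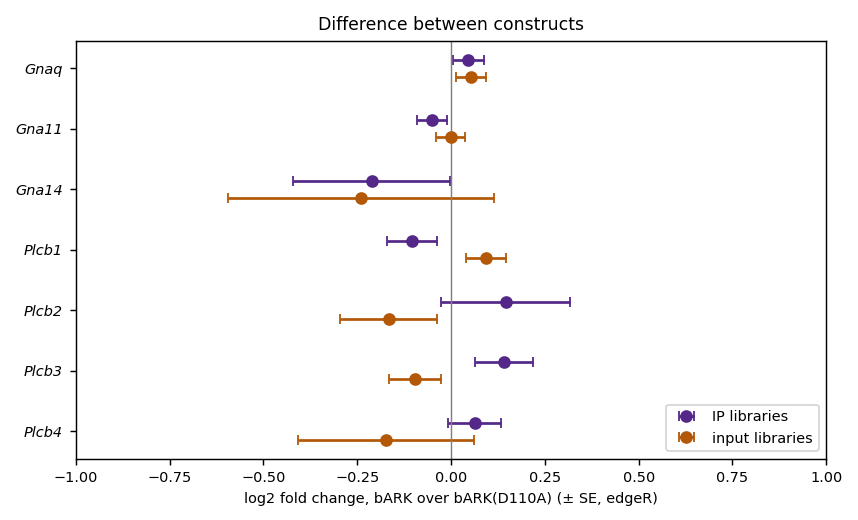
Log2 fold change of bARK over bARK(D110A) from edgeR (x axis) with its SE as bars, for the 7 members in IP and in input libraries (4 libraries per group). All points lie between -0.24 and 0.15, and the widest bars are those of Gna14 in input and of Plcb4 in input.

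Grk2, the kinase from which the peptide derives, stands in the table under its older symbol Adrbk1. It averaged 114 ± 15.2 CPM in bARK IP and 90.9 ± 7.15 CPM in bARK input (SD, n = 4). With bARK(D110A) the mean was 102 ± 7.80 CPM in IP and 93.8 ± 9.28 CPM in input. It was called higher in IP with bARK, at 0.32 ± 0.09 (SE, adjusted p = 0.00416), and had 0.12 ± 0.09 with bARK(D110A) (adjusted p = 0.257). Without scaling factors the call with bARK was lost (0.18, adjusted p = 0.0829). The difference between constructs was not called in IP (0.15 ± 0.10, adjusted p = 0.668), in input (-0.05 ± 0.08, adjusted p = 0.897) or between the enrichments (0.21 ± 0.13, adjusted p = 0.849). Whether reads of the peptide's own transcript can count toward this gene was not tested.

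The rest of the pathway was read from lists, whose counts are given with up to 2 called genes on each side, ranked by the smaller of their 2 fold changes. Over all tested genes, 37.6% were higher and 38.1% lower with bARK, and 36.5% higher and 37.2% lower with bARK(D110A), and each list count stands beside those shares. Of 10 genes of other phospholipase C families, 7 were higher and 3 lower in IP with each construct, with a median log2 fold change of 0.50 with bARK and 0.38 with bARK(D110A), against -0.01 for all tested genes with each construct. Plcd4 (2.58 with bARK and 2.39 with bARK(D110A)) and Plcd1 (2.22 and 1.92) encode delta enzymes, which respond mainly to calcium. Plcg2 (-1.17 and -1.71), the gamma enzyme of immune cells, and Plcl2 (-1.17 and -1.05), a PLC-like protein without enzyme activity, were lower.

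Genes that supply PIP2 numbered 13, of which 6 were higher and 4 lower with each construct, with medians of 0.04 with bARK and 0.10 with bARK(D110A). Pip5k1b (1.00 and 0.94), a kinase that makes PIP2, and Pi4k2b (0.84 and 0.74), a kinase of the step before it, were higher. Pip5k1a (-0.70 and -0.52) and Pip5k1c (-0.64 and -0.53), further kinases that make PIP2, were lower. Without scaling factors 3 of the 13 were higher with bARK.

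Of 18 genes of IP3 and diacylglycerol turnover, 5 were higher and 9 lower with bARK, and 6 higher and 6 lower with bARK(D110A). Their medians were -0.15 with bARK and -0.08 with bARK(D110A). Itpkb (1.65 and 1.53), an IP3 kinase, and Dgka (1.02 and 0.86), a diacylglycerol kinase, were higher. Itpka (-1.43 and -1.18), the IP3 kinase of neurons, and Dgki (-1.07 and -0.96), a diacylglycerol kinase, were lower. Itpka was at 58.6 CPM in bARK IP, against 158 CPM in bARK input, and Itpkb at 58.2 CPM in bARK IP, against 18.6 CPM in bARK input. The remaining IP3 kinase, Itpkc, was not called, with 0.09 (adjusted p = 0.323) and -0.08 (adjusted p = 0.431). With bARK(D110A), without scaling factors, 10 of the 18 were lower.

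Of 3 IP3 receptors, 1 was higher and 2 lower with each construct, where 75.8% of all tested genes with bARK and 73.7% with bARK(D110A) were called in either direction. Itpr2, the receptor type best known from astrocytes, was at 149 CPM in bARK IP, against 48.9 CPM in bARK input, and at 125 CPM in bARK(D110A) IP, against 51.4 CPM in bARK(D110A) input. Its log2 fold change was 1.61 with bARK (adjusted p = 3.00e-12) and 1.28 with bARK(D110A) (adjusted p = 6.13e-11). Itpr1, the main receptor of neurons, had -0.60 and -0.38 with bARK and bARK(D110A). Its level was 1964 CPM in bARK IP, against 2984 CPM in bARK input. With bARK(D110A) it was at 2117 CPM in IP, against 2764 CPM in input. Without correction for length, Itpr1 thus stood above Itpr2 in IP as well as in input. The scarce Itpr3 had -1.85 and -1.99.

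Of 7 partners of Gq and further effectors, 3 were higher and 3 lower with bARK, and 2 higher and 3 lower with bARK(D110A), with medians of -0.15 and -0.16. Ric8a, listed under its older symbol Ric8, is a chaperone of newly made alpha subunits and had 0.47 and 0.45 with bARK and bARK(D110A). Its relative Ric8b had -1.20 and -1.04. Grk3, listed as Adrbk2, is the closest relative of Grk2 and had 0.92 and 0.81. Kalrn, a guanine nucleotide exchange factor, had -0.55 and -0.46.

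Of 27 Gq-coupled receptors, 25 were tested for IP against input. With bARK 12 were higher and 6 lower, and with bARK(D110A) 11 were higher and 6 lower, with medians of 0.80 and 0.37. The neurokinin receptors Tacr3 (2.32 and 2.22) and Tacr1 (2.24 and 2.20) ranked first on the higher side by the smaller of their 2 fold changes. With bARK alone, P2ry2 (2.65 and 1.69), a nucleotide receptor, and Ednrb (2.32 and 2.13), an endothelin receptor, stood above them. P2ry6 (-2.06 and -2.51), a nucleotide receptor of microglia, and Htr2a (-1.33 and -0.90), a serotonin receptor, ranked first on the lower side. No tested gene of these lists was called between bARK and bARK(D110A) in IP, in input or in the difference of enrichment. Gna15 did not pass the count filter for that test in IP, and in input 24 of the 27 receptors were tested.

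**Figure D5:**
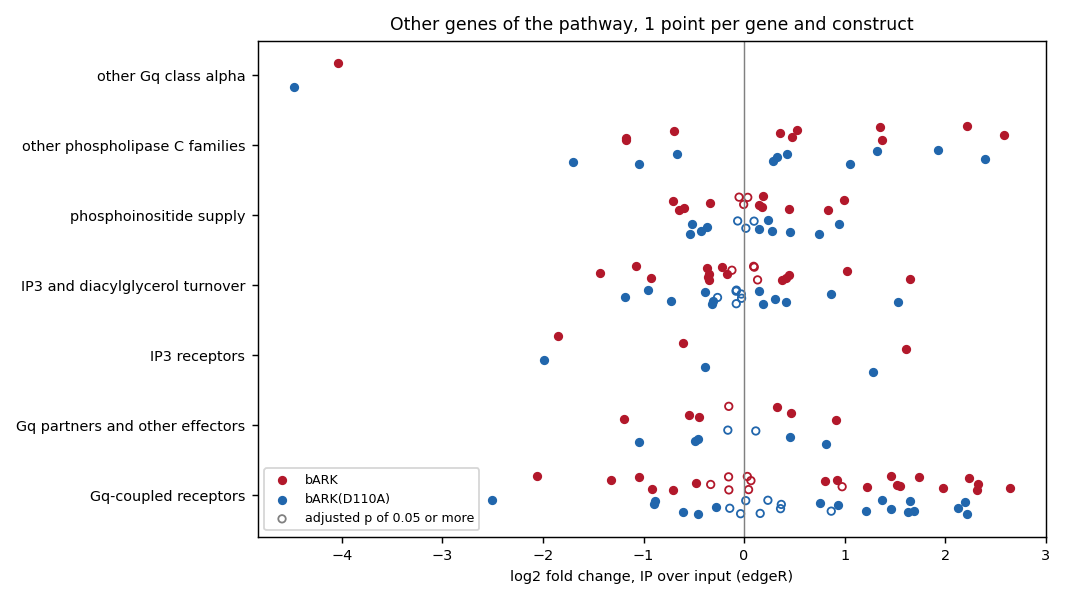
Log2 fold change of IP over input (x axis, edgeR) for each gene of 7 pathway lists, with bARK points above bARK(D110A) points in each band and open points where the adjusted p was 0.05 or more. Members of nearly every list lie on both sides of 0, from Gna15 at -4.04 and -4.48 to P2ry2 at 2.65 with bARK.

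To describe which genes moved like each member, Pearson's r of log2 CPM was taken over the 16 libraries among 10026 or 10027 genes other than the member with a mean of at least 10 CPM. All points share the step between IP and input libraries, so r mainly carries that step and is given without a test. Plcb3 was most like Tubb2b, a tubulin gene (r = 0.999). Plcb4 was most like Efr3a (r = 0.996), which helps to anchor a PI4 kinase at the plasma membrane, and Kcnk9, a potassium channel gene (r = 0.995). Plcb2 was most like Ezh2, a histone methyltransferase gene (r = 0.992), and 2610100L16Rik (r = 0.991). Over 0.9 stood 3031 genes for Plcb3, 2757 for Plcb4, 1965 for Plcb2 and 1992 for Gnaq.

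Among the remaining members, Gnaq was most like Cdh10, a cadherin gene (r = 0.980), and Wnk2, a kinase gene (r = 0.973). Gna11 was most like Tmem179 (r = 0.952) and Rnf187 (r = 0.949), and Plcb1 most like Gpr158, an orphan receptor gene (r = 0.959), and Reln, the gene of reelin (r = 0.952). For Gna14 the closest were Trim28 (r = 0.952) and Puf60 (r = 0.926). Over 0.9 stood 41 genes for Gna11, 42 for Gna14 and 109 for Plcb1.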

How the data were processed

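RNA was sequenced from 16 libraries in 4 groups, from 100 ng of RNA each. Reads came from bcl2fastq 2.17, and the tools STAR, HTSeq and limma and the build mm10 are listed, per the submitters' processing notes. The annotation and the strand setting are not given in the sources used here. The table deposited by the authors holds whole-number counts of reads per gene. It has 24060 lines for 24058 symbols, 4017 of them at 0 throughout, and the 2 symbols found on several lines name no gene here.

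Genes were tested in R 4.3.3 with edgeR 4.0.16 (quasi-likelihood F test, robust dispersion, TMM, filterByExpr with minimum count 10, Benjamini-Hochberg adjustment over all tested genes, threshold 0.05). Adjusted p-values of genes come from this test unless another is named, and ± after its log2 fold change is the SE. IP against input and the difference of enrichment came from 1 fit of all 16 libraries (15850 genes). That fit had no term for the mouse, so its p-values do not use the pairing of IP and input. bARK against bARK(D110A) came from the 8 IP libraries (15006 genes) and the 8 input libraries (15361 genes). DESeq2 1.42.0, other scalings and filters, other sets of libraries and blocks were tried as alternatives, and the scripts were tested on simulated counts. CPM used TMM library sizes, and RPKM the union of GENCODE exons. Log CPM for r used a prior count of 2.

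The members and lists were chosen with earlier results of these data known. Genes named are the members, Gna15, Grk2, of each list up to 2 higher and 2 lower genes called with both constructs (ranked by the smaller absolute fold change of the 2), and the 2 most alike of each member, of which 1 is not reported here. P2ry2, Ednrb and Itpkc were chosen after their values were seen. Deviations from group means of the IP and the input library of a number correlated at 0.166 to 0.315 with bARK and 0.239 to 0.561 with bARK(D110A), so the numbers pair them. Replicates differed by more than sampling noise in every pair.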

Additional observations from a re-analysis of the deposited data

Results flagged for a closer look

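A gap test (Dixon's) was run on the CPM of 9 genes in the 4 groups, 36 tests in all, and 4 single libraries lay farther from the rest of their group than it allows. Chance flags about 1 in 20 groups. Gnaq was at 178 CPM in bARK(D110A) IP 4, below the 3 others of its group at 184 to 185 CPM. Gna14 was at 0.823 CPM in bARK input 2, from 24 reads, above the others at 0.454 to 0.476 CPM. Plcb4 was at 31.2 CPM in bARK input 4, above the others at 27.8 to 28.1 CPM, and at 50.4 CPM in bARK(D110A) input 2, above the others at 24.7 to 28.2 CPM. Both Plcb4 libraries also had the highest sum of cortical and thalamic neuron genes among the inputs of their construct, at 122 CPM with bARK and 210 CPM with bARK(D110A). In bARK input 4 the cortical Slc17a7 was at 86.4 CPM, against 19.2 to 52.1 CPM in the others. The thalamic Slc17a6 was at 0.988 CPM there, against 1.28 to 4.23 CPM in the others. Prkcd and Tcf7l2 of the list lay inside the range of the other bARK inputs. The part of cortical and thalamic neurons in the Plcb4 values was not tested.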

How the results depend on the processing

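Of 2767 values under alternatives, 2663 kept their direction and side of the threshold or moved by less than the spread. With bARK, 4 members higher and 3 lower in IP held under each scaling, filter, tool, fit and left-out library. With bARK(D110A), 2 members were lower, against 1 with no count filter, in the fit of its 8 libraries and without both libraries of mouse 2 (added after seeing the data), and 1 to 3 when 1 library was left out. It was 3 on library sizes alone, with at least 1 CPM in 4 libraries, with DESeq2 and with the mouse block, and library sizes alone gave 3 members higher in place of 4. Library sizes alone gave 4806 genes higher and 7333 lower with bARK, where TMM gave 5966 and 6044, and 4459 and 7473 with bARK(D110A), where TMM gave 5786 and 5891. DESeq2 called 37 genes higher and 11 lower between constructs in IP and 2 higher in input, where edgeR called 0. The cause was not tested.

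Gna11 with bARK(D110A) lost its call with no count filter (-0.06, adjusted p = 0.182), in the fit of 8 libraries (-0.10, adjusted p = 0.0854) and without mouse 2 (-0.09, adjusted p = 0.0808). Plcb1 with bARK(D110A) was called on library sizes alone (-0.31, adjusted p = 0.000164), with at least 1 CPM in 4 libraries (-0.18, adjusted p = 0.0218), with DESeq2 (-0.15, adjusted p = 0.0486) and with the mouse as a replicate block (-0.15, adjusted p = 0.0213). The replicate block changed no other member's call. Across constructs the numbers do not pair the samples (correlations of -0.256 to 0.101), and a block on the number left 0 members called.

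Signs turned in uncalled values. On library sizes alone, Adrbk1 with bARK(D110A) was -0.043 and the difference of IP enrichment between constructs for Gnaq 0.011. Gna11 between constructs in input was 0.0042 with RLE factors, 0.0041 with DESeq2 and 0.0058 in the fit of 16. The differences for Gna14 and Plcb4 were -0.017 and -0.047 without mouse 2. With 1 library left out, the differences ran from -0.048 to 0.0067 for Gnaq, -0.15 to 0.25 for Gna14 and -0.078 to 0.32 for Plcb4, and in input from -0.021 to 0.013 for Gna11, -0.27 to 0.13 for Plcb4 and -0.087 to 0.025 for Adrbk1. Depth limits Gna14, with 9 to 87 reads per library, and Gna15 in IP, with 3 to 15.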
